A study of Homo sapiens with 9 samples.

Results

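COX4I1 and MTX1 are nuclear genes whose proteins work in mitochondria, and they are 2 of the 20 protein-coding genes that could be named on these arrays. The members were taken by probe: the probe that carries the RefSeq accession of COX4I1 and the one that carries that of MTX1, each printed in 10 spots, which makes 20 spots on an array with 60924 lncRNA and mRNA probes. The study compared 3 human ovarian cell lines. IOSE80 cells are immortalized cells of the normal ovarian surface epithelium, SKOV3 is an ovarian adenocarcinoma line, and SKOV3-DDP is labelled as a derivative of SKOV3 that is resistant to cisplatin, a platinum drug that damages DNA. None of the lines was treated in this experiment, and the labels name the lines without a dose, a passage or a clone. Total RNA was labeled with the single dye Cy3, and each line was read on 3 arrays, 9 in all. The labels do not say whether the 3 arrays of a line came from separate cultures, so p-values measure the spread between these arrays, which may be technical.

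COX4I1 encodes the common isoform of subunit 4 of cytochrome c oxidase, also called complex IV. This enzyme sits in the inner mitochondrial membrane, passes electrons from cytochrome c to oxygen and pumps protons, and subunit 4 is a nuclear-encoded part that is needed for its assembly and at which ATP adjusts its activity. MTX1 encodes metaxin 1, a protein of the outer mitochondrial membrane that works with metaxin 2 and SAMM50 in the machinery that inserts barrel-shaped proteins into that membrane. The genes therefore serve different membranes of the same organelle, one the respiratory chain and the other protein import and assembly.

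The sequences just upstream of the start of both genes are shown because the question of whether they moved together runs through the results. They are 250 bases before the start, from the RefSeq annotation of GRCh38.p14, plus strand, matched by symbol, with each CCGGAA in capitals, a core that ETS-family factors such as GABP bind. GABP is a known regulator of nuclear genes for the respiratory chain.
COX4I1, chr16:85799445-85799694: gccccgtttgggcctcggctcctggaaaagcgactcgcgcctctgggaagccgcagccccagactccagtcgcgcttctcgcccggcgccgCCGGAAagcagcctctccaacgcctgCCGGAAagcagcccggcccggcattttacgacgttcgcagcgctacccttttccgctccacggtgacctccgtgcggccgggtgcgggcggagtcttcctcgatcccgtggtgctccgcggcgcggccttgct
MTX1, chr1:155208445-155208694: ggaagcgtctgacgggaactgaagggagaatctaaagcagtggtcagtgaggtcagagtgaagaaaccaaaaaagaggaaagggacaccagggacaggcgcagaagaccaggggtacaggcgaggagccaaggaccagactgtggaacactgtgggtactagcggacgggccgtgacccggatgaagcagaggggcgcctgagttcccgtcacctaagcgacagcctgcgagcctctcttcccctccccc
On either strand, CCGGAA occurs 2 times in the COX4I1 window, beginning 159 and 133 bases before the start, and 0 times in the MTX1 window. The share of all 35116 annotated windows of this length that hold it is 14.5%. The GC box GGGCGG occurs 1 time in the COX4I1 window, 48 bases before the start, and 0 times in the MTX1 window, against a share of 42.6%. TATAAA is in neither window, against a share of 10.72%. The G and C content is 70.4% for COX4I1 and 59.6% for MTX1, and the median of all windows is 58.0%. These are matches of letters, and nothing was measured about binding. For MTX1 2 starts are listed, and the window shown is that of the first.

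The arrays labelled SKOV3-DDP stood apart from the others, and several control probes on them went against the label of a human line derived from SKOV3. The 75th percentile of log2 intensity, taken over probes detected well above background on every array, lay between 12.14 and 12.41 on the IOSE80 and SKOV3 arrays and between 9.58 and 9.80 on the SKOV3-DDP arrays. Of 8 control probes named for mouse or rat PGK1 and GAPDH, 4 were more than 16-fold brighter on the SKOV3-DDP arrays than on the IOSE80 arrays. The others differed less, and 5 of the 8 were well above background on every IOSE80 array. The rat-named probe for the 5′ end of GAPDH averaged 14.42 (log2, unscaled) in SKOV3-DDP and 13.46 in IOSE80. For the 5′ end of PGK1 the mouse-named probe averaged 8.09 and 8.18, and the rat-named one 8.185 and 8.555. The rat-named probe for the 3′ end of GAPDH averaged 4.80 in SKOV3-DDP and was well above background on 0 IOSE80 arrays. The mouse-named probe for the 5′ end of GAPDH was between 15.32 and 15.99 (log2, unscaled) on the SKOV3-DDP arrays. It was well above background on 1 of the other 6 arrays, a SKOV3 array that read 5.01, and on the other 5 only a bound can be given, of at most 5.31. Of 4 human-named control probes, 3 were dimmer on every SKOV3-DDP array than on every IOSE80 array. The arrays were scanned at 2 times, scan 1 with every IOSE80 array and 2 of SKOV3, and scan 2 with every SKOV3-DDP array and 1 of SKOV3. Because of the control probes, the identity of the RNA on the 3 SKOV3-DDP arrays is in doubt. Separately, in RNA of whole cultures, fewer expressing cells and less RNA per cell cannot be told apart. SKOV3-DDP below means the arrays with that label, and a difference from them is not shown to be a difference of the cisplatin-resistant line. The part of the rodent-named signal in these differences was not tested.

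The COX4I1 probe was bright in IOSE80 and SKOV3 and far dimmer in SKOV3-DDP. Its geometric mean background-corrected intensity, taken from the mean log2 value of the spots, was 146600, 144700 and 144400 on the IOSE80 arrays. It was 145000, 135500 and 141800 on the SKOV3 arrays. On the SKOV3-DDP arrays it was 4598, 2624 and 3785. The values of IOSE80 and SKOV3 overlapped, and each SKOV3-DDP array lay far below all 6 of them. Of its 90 spots, 90 were well above background and 0 were saturated, and 8 were left out as outliers. Spots stood between 70.9 and 3601 times over their local background, by the median of each array, so none of these levels rests on dim spots.

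The MTX1 probe showed the same order of lines. Its geometric mean intensity was 40580, 39380 and 38370 on the IOSE80 arrays. It was 40660, 38890 and 38440 on the SKOV3 arrays. It was 1622, 1198 and 1446 on the SKOV3-DDP arrays. IOSE80 and SKOV3 again overlapped, with every SKOV3-DDP array below both. All 90 MTX1 spots were well above background, 0 were saturated, and 6 were left out. The lowest array median of spot over local background was 32.8.

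The spots of a probe agreed closely within an array. The SD over the spots of COX4I1 lay between 0.012 and 0.053 (log2) on the 9 arrays, with a median of 0.028, and that of MTX1 lay between 0.017 and 0.054, with a median of 0.038. Spots share the RNA of their array, so the array was counted as the replicate.

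**Figure D1:**
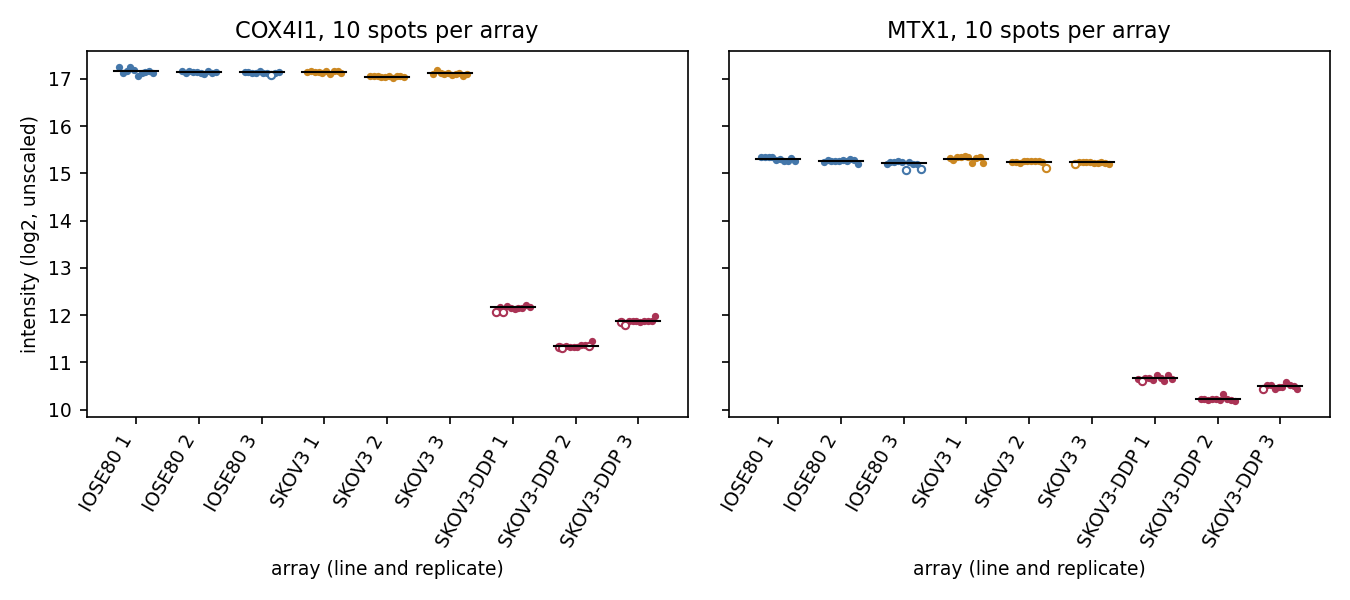
Background-corrected intensity (log2, without scaling between arrays) of each COX4I1 spot (left) and MTX1 spot (right) on the 9 arrays; filled points are spots used, open points are spots left out as outliers, and bars are the mean of the spots used. Spots of one array lie close together, and the SKOV3-DDP arrays lie near 12 for COX4I1 and near 10 for MTX1, far below the other 6 arrays.

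For the comparison of lines, log2 signals were expressed relative to the 75th percentile of each array. On this scale COX4I1 was at 4.96, 4.73 and 4.93 on the IOSE80 arrays, at 4.95, 4.91 and 4.84 on the SKOV3 arrays, and at 2.58, 1.59 and 2.09 on the SKOV3-DDP arrays. IOSE80 averaged 4.88 ± 0.12 (SD, n = 3 arrays), SKOV3 averaged 4.90 ± 0.053 (n = 3) and SKOV3-DDP averaged 2.09 ± 0.50 (n = 3). SKOV3-DDP was thus the lowest line, and the order of the other lines was within their spread.

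MTX1 was at 3.11, 2.86 and 3.02 relative to the 75th percentile on the IOSE80 arrays, at 3.11, 3.11 and 2.96 on the SKOV3 arrays, and at 1.08, 0.46 and 0.70 on the SKOV3-DDP arrays. IOSE80 averaged 3.00 ± 0.13 (SD, n = 3 arrays), SKOV3 averaged 3.06 ± 0.087 (n = 3) and SKOV3-DDP averaged 0.75 ± 0.31 (n = 3). As with COX4I1, the lowest line was SKOV3-DDP and the upper lines did not separate. A probe's brightness depends on its sequence, so the distance between the COX4I1 and MTX1 levels says nothing about which RNA was more abundant.

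**Figure D2:**
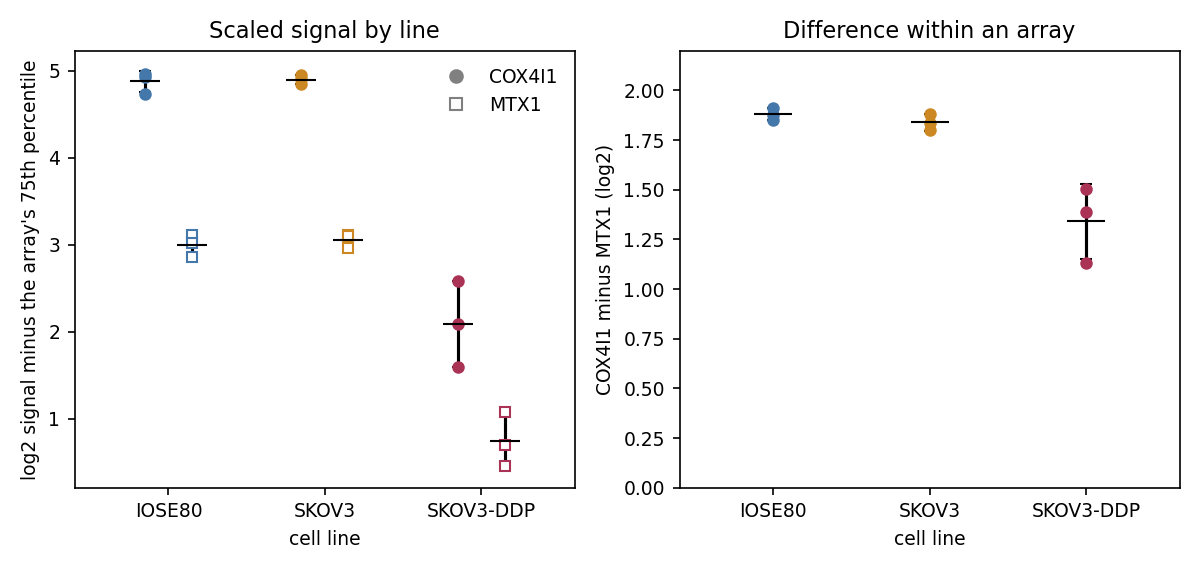
Left, log2 signal relative to each array's 75th percentile for COX4I1 (filled circles) and MTX1 (open squares) in the 3 lines; right, the COX4I1 minus MTX1 difference within each array (log2). Points are arrays, horizontal marks are means and bars are SD over 3 arrays; both probes drop in SKOV3-DDP, and the within-array difference drops from 1.88 in IOSE80 and 1.84 in SKOV3 to 1.34 in SKOV3-DDP.

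Between SKOV3 and IOSE80, the carcinoma line and the normal epithelial line, neither gene was called at a fold change over 2 and an adjusted p under 0.05. The share of the 28591 tested probes that was called in this comparison was 33.5%. COX4I1 differed by 0.022 (log2, SKOV3 minus IOSE80), with a 95% interval from -0.50 to 0.54 and an adjusted p of 0.945 (limma, Benjamini-Hochberg over all tested probes). MTX1 differed by 0.063, with an interval from -0.33 to 0.46 and an adjusted p of 0.786. These intervals lie within a 2-fold difference in either direction. The spread in this fit is shared with the more variable SKOV3-DDP arrays, and from the 6 arrays of these lines alone the intervals were -0.23 to 0.27 for COX4I1 and -0.20 to 0.33 for MTX1. The sign of these small differences was not stable. Both turned negative when arrays were centred on the other named probes, at -0.36 for COX4I1 and -0.32 for MTX1, and again neither was called. Within scan 1, with 2 SKOV3 and 3 IOSE80 arrays, the differences were 0.050 for COX4I1 and 0.11 for MTX1.

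Between SKOV3-DDP and IOSE80, both genes were called lower on the arrays labelled SKOV3-DDP, whose identity is in doubt. The call share among all tested probes was 82%, of which probes called lower were 29.8% and probes called higher 52.2% of those tested, so a call by itself was common here. COX4I1 fell by 2.79 on the log2 scale, a 6.90-fold lower scaled signal (standard error 0.23, 95% interval -3.31 to -2.26, adjusted p = 2.85e-06 from limma). MTX1 fell by 2.25, a 4.75-fold lower scaled signal (standard error 0.17, interval -2.64 to -1.85, adjusted p = 1.90e-06 from limma). For both genes every SKOV3-DDP array was below every IOSE80 array. How many of all tested probes were separated in this way was not counted, so this does not set the genes apart. The median of all tested probes shifted up by 1.24 in this scaling, so relative to that median the differences were -4.03 for COX4I1 and -3.49 for MTX1. Of all tested probes, 16.1% had a lower difference than COX4I1 and 20.0% a lower one than MTX1. The human-named control probes, as read without scaling, differed by between -3.35 and 0.13 on the same arrays, where COX4I1 differed by -5.34 and MTX1 by -4.80. IOSE80 and SKOV3-DDP share no scan, so scan and line cannot be told apart by these arrays alone. With the scan as a block, which SKOV3 links, the differences were -2.70 and -2.10.

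Between SKOV3-DDP and SKOV3, from which the labelled line derives, the differences were close to those against IOSE80. Of all tested probes, 80.9% were called in this comparison and 28.1% were called lower and 52.8% higher. COX4I1 fell by 2.81 on the log2 scale, a 7.01-fold lower scaled signal (standard error 0.23, 95% interval -3.33 to -2.29, adjusted p = 2.92e-06 from limma). MTX1 fell by 2.31, a 4.96-fold lower scaled signal (standard error 0.17, interval -2.71 to -1.91, adjusted p = 1.72e-06 from limma). The arrays of these lines did not overlap for either gene, and the share of all tested probes without overlap was not counted. Relative to the median of all tested probes, which shifted up by 1.27, the differences were -4.08 for COX4I1 and -3.58 for MTX1. Without scaling, the human-named control probes differed by -0.11 and -2.24 for the 3′ and 5′ ends of GAPDH and by -4.50 and -4.38 for those of PGK1, where COX4I1 differed by -5.30 and MTX1 by -4.80. The values of the PGK1 probes were close to that of MTX1. Within scan 2, which holds the SKOV3-DDP arrays and 1 SKOV3 array, COX4I1 differed by -2.75 and MTX1 by -2.21, values with no test. The SKOV3-DDP arrays serve in both comparisons, which are therefore not independent of each other.

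**Figure D3:**
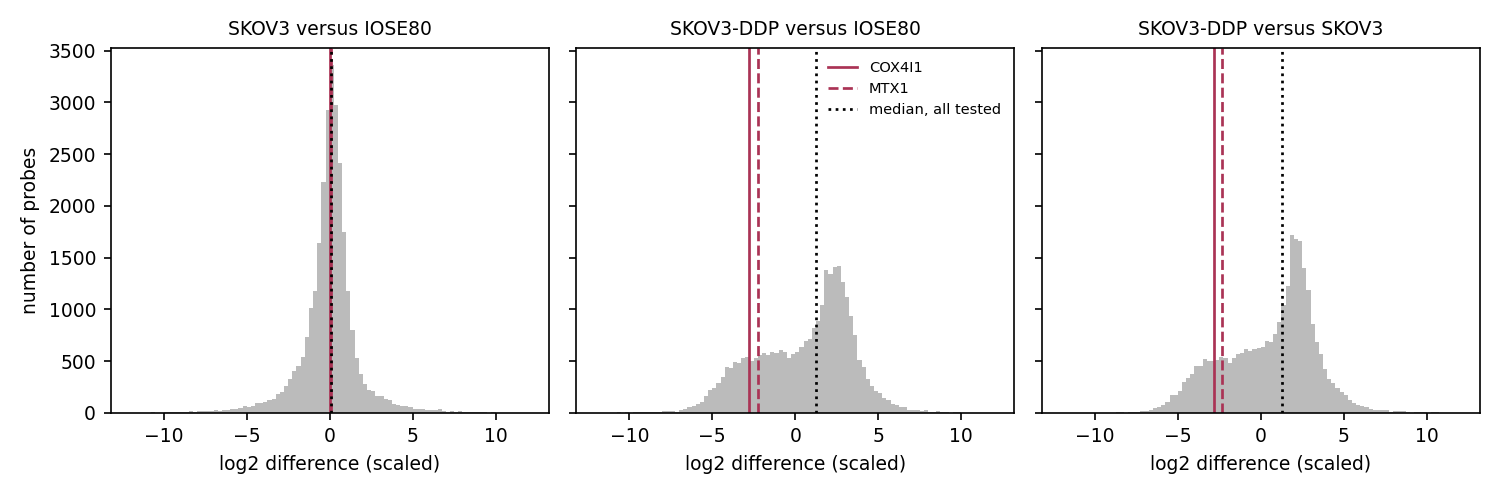
Number of tested probes by log2 difference (bars, 0.25 wide, scaled to each array's 75th percentile) in the 3 comparisons of lines; the solid line marks COX4I1, the dashed line MTX1 and the dotted line the median of all tested probes. COX4I1 and MTX1 sit at the centre between SKOV3 and IOSE80 and on the lower side, at -2.79 and -2.25, between SKOV3-DDP and IOSE80.

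The size of the fall in SKOV3-DDP followed the scaling, and its direction did not. Without scaling between arrays, the geometric mean intensity of COX4I1 was 40.6-fold lower in SKOV3-DDP than in IOSE80, and that of MTX1 was 27.9-fold lower. The 75th percentile used for scaling itself fell by 2.56 (log2), and that part is taken out of the scaled values. Quantile normalization gave -3.48 for COX4I1 and -2.46 for MTX1 against IOSE80, and the percentile over all probes gave -3.60 and -3.06. In each of these settings both genes were called lower in SKOV3-DDP. Among all called probes the split moved more. Higher probes made up 63.6% of the calls against IOSE80 as reported, 53.2% after quantile normalization, 79.5% after normexp background correction and 16.6% without scaling. Against SKOV3 these shares were 65.3%, 53.4%, 81.0% and 15.3%, and between SKOV3 and IOSE80 the share was 47.6% as reported and 30.1% when arrays were centred on the other named probes.

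**Figure D4:**
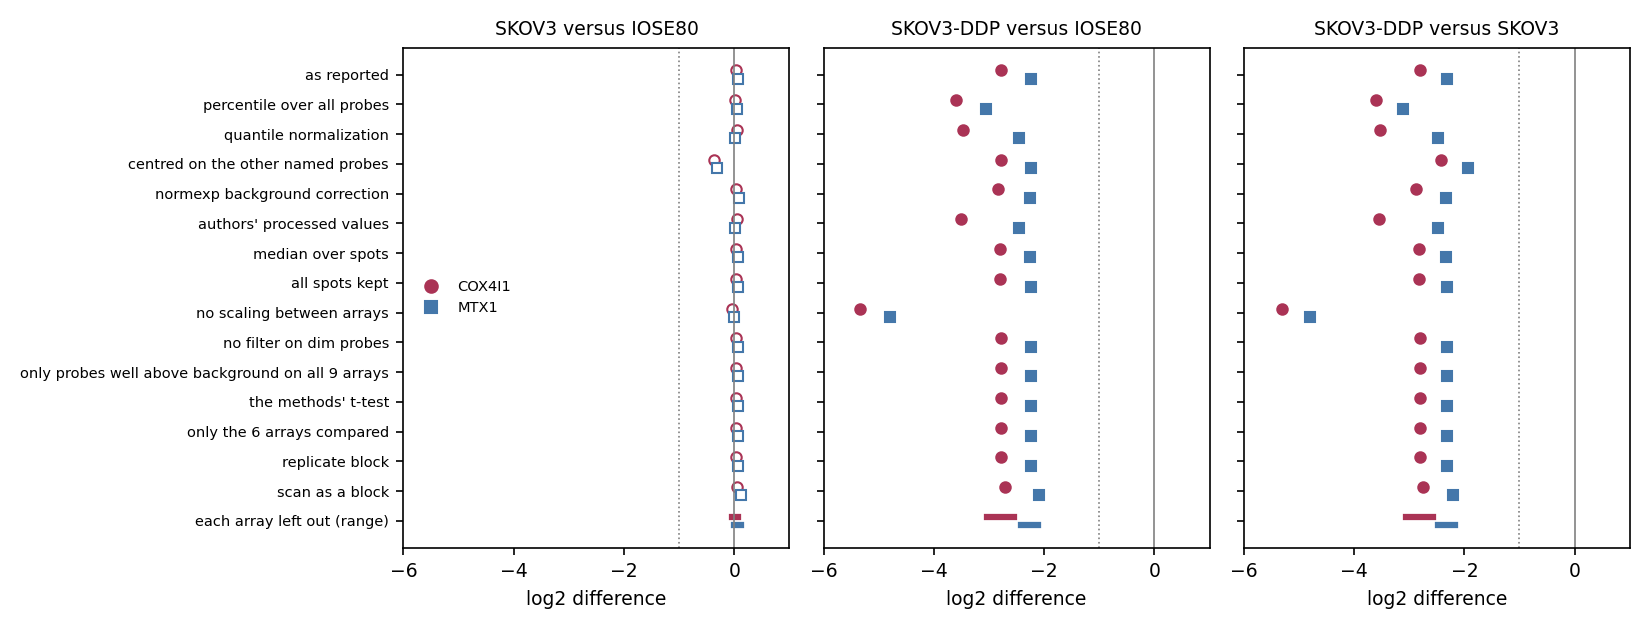
Log2 difference of COX4I1 (circles) and MTX1 (squares) in the 3 comparisons under each processing setting; filled symbols are called, open symbols are not, the solid vertical line is at 0, the dotted line marks a 2-fold fall, and the bars at the bottom give the range when each array was left out in turn. Both genes stay near 0 between SKOV3 and IOSE80 and are called lower in SKOV3-DDP in all settings drawn, furthest from 0 without scaling.

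Whether the genes fell equally was asked within arrays, where the scaling cancels. The COX4I1 minus MTX1 difference (log2) was 1.853, 1.878 and 1.912 on the IOSE80 arrays, 1.834, 1.801 and 1.883 on the SKOV3 arrays, and 1.503, 1.131 and 1.388 on the SKOV3-DDP arrays. Every SKOV3-DDP array was below every other array, and IOSE80 and SKOV3 overlapped. COX4I1 thus fell further than MTX1, by a mean of 0.54 against IOSE80 (-0.54 as SKOV3-DDP minus IOSE80) and 0.50 against SKOV3 (-0.50). An exact two-sided permutation test of 3 arrays against 3 gave p = 0.1 for both, the smallest p this design allows, so neither can pass 0.05. Between SKOV3 and IOSE80 the within-array difference changed by -0.041 (exact two-sided permutation p = 0.3), with 3 such comparisons made in all. After quantile normalization, which reshapes each array, the unequal fall was -1.02 against IOSE80 and -1.06 against SKOV3, and the authors' processed values gave -1.04 and -1.08.

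The SKOV3-DDP arrays also varied more among themselves. The SD of COX4I1 over the SKOV3-DDP arrays was 0.50 on the scaled log2 scale, against 0.12 in IOSE80 and 0.053 in SKOV3, and that of MTX1 was 0.31, against 0.13 and 0.087. The median SD of all tested probes was 0.27 in SKOV3-DDP, 0.13 in IOSE80 and 0.21 in SKOV3. In SKOV3-DDP, 80.9% of them had a lower SD than COX4I1 and 60.8% a lower one than MTX1. In SKOV3 these shares were 10.98% and 20.09%, and in IOSE80 46.85% and 48.35%. The spread of both genes in SKOV3 was thus low among the tested probes. Both genes were brightest on SKOV3-DDP replicate 1 and dimmest on replicate 2, on the scaled and the unscaled log2 scale. The same held for 11 of the other 17 tested named probes on the scaled and for 7 on the unscaled scale. Among the control probes, read on the unscaled scale, 8 of the 8 rodent-named and 3 of the 4 human-named probes were dimmest on replicate 1, and 6 and 3 of them were brightest on replicate 2. The part of this in the spread of COX4I1 and MTX1 was not tested.

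Among the named probes, EIF3D had the pattern closest to both genes. The Euclidean distance over the 9 arrays, between log2 signals centred on each probe's own mean, was 0.69 between COX4I1 and EIF3D, 0.79 between COX4I1 and MTX1, and 1.44 between COX4I1 and DYNLL1. For MTX1 it was 0.58 to EIF3D, 0.79 to COX4I1 and 0.87 to DYNLL1. EIF3D encodes a subunit of the translation initiation factor eIF3, and DYNLL1 encodes a dynein light chain. EIF3D was at 4.35 ± 0.08 (scaled log2 signal, SD, n = 3 arrays) in IOSE80, and SKOV3 and SKOV3-DDP had 4.08 ± 0.18 and 1.81 ± 0.54. DYNLL1 was at 4.21 ± 0.09, 4.74 ± 0.009 and 2.58 ± 0.52 in the same order. All 4 of these probes were lowest in SKOV3-DDP.

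The other tested named probes did not share one direction. Of 17, 6 were called higher and 6 lower in SKOV3-DDP than in IOSE80, and the other 5 were not called, with a median difference of -0.74 and a range from -3.51 to 3.35. Against SKOV3, 6 were called higher and 7 lower, with a median of -0.37. Between SKOV3 and IOSE80, 2 were called higher and 2 lower, with a median of 0.046. No other mitochondrial gene could be set beside the pair. Of 15 genes of complex IV, COX4I1 was the 1 with a named probe, of 11 genes for import and assembly at the outer membrane MTX1 was the 1, and of 11 other respiratory chain genes 0 had one. Marker genes were not used to check the lines, since 0 of 10 epithelial, 0 of 4 mesenchymal and 0 of 2 leukocyte markers were among the named probes. The control probes were the check on identity made here, and on the arrays labelled SKOV3-DDP several of them went against the label.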

How the data were processed

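Expression was measured on 9 one-color Arraystar human lncRNA arrays, 3 each for IOSE80, SKOV3 and SKOV3-DDP. The authors deposited 1 scanner file per array from Feature Extraction 11.0.1.1 (per the file headers; the submitters' processing notes name Agilent Feature Extraction 10.7.3.1), with the background-corrected intensity and flags of each spot. A table of log2 values that the authors processed was deposited as well; the median is the same in every column, and the method was not given in the sources used here. The array design is built on hg19, and no probe sequence or position was used.

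The members and gene lists were chosen with earlier results of these data known. The log2 intensity of a probe was the mean of its spots, without those marked non-uniform or, where it had more than 1 spot, marked population outliers. Each array's 75th percentile, over the 15226 probes detected well above background everywhere, was subtracted, since most probes were not detected. Testing covered 28591 of 60924 probes, those well above background in 3 or more arrays, with limma 3.58.1 in R 4.3.3, all 9 arrays in one model; 19 of the 20 named probes passed, both members among them. Probes were called at an adjusted p (Benjamini-Hochberg) under 0.05 with a fold change over 2. The 20 RefSeq accessions, those of the probes printed in more than 1 spot, were matched to symbols of GRCh38.p14. The rule for other named genes was the 3 named probes nearest to each member. The test was tested on simulated data with known changes. Normexp with an offset of 50 used the median spot signal. The alternatives were those drawn in the plot of settings, and leaving out each array. Values without scaling were added after seeing the data. Same-numbered arrays did not deviate together (1 of 9 pairs had a correlation over 0.1), so the number was not taken to pair them. Python 3.11.15 and matplotlib 3.10.9 made the tables and plots. The number of arrays limits the precision. RefSeq lists the pseudogenes COX4I1P1 and MTX1LP, whose RNA cannot be told apart here from that of the members.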

Additional observations from a re-analysis of the deposited data

Results flagged for a closer look

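The effects of SKOV3 and of the arrays labelled SKOV3-DDP against IOSE80 differed for both genes, by the limma contrast between the lines themselves. For COX4I1 the difference was -2.81 (log2, SKOV3-DDP minus SKOV3, adjusted p = 2.92e-06), and for MTX1 it was -2.31 (adjusted p = 1.72e-06). All 3 SKOV3-DDP arrays were below all 3 SKOV3 arrays for each gene. This is the same comparison of SKOV3-DDP with SKOV3 as above. In it 80.9% of all tested probes were called and 28.1% were called lower, so such a call was common. Both effects share the IOSE80 arrays.

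Control probes outside the comparison of genes carried a signal on the SKOV3-DDP arrays above their IOSE80 level, as read without scaling. The mouse-named probes were higher by 5.58 (log2) for the 3′ end of GAPDH, by at least 10.64 for its 5′ end and by 4.72 for the 3′ end of PGK1, and the rat-named probe for the 3′ end of PGK1 was higher by at least 9.42. Each bound counts an IOSE80 array that did not detect the probe at the larger of 2 signals, that of the probe and that of the dimmest probe detected there. These signals go against the label of a human line, so the identity of the RNA on these arrays is in doubt. Their part in the fall of COX4I1 and MTX1 was not tested.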

How the results depend on the processing

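Both genes were called lower in SKOV3-DDP, against either line, under each of the 14 alternatives with a test and with each of the 9 arrays left out, and neither was called between SKOV3 and IOSE80 under any of them. Against IOSE80, the alternatives gave values from -5.34 to -2.70 for COX4I1 and from -4.80 to -2.10 for MTX1. Against SKOV3, they ranged from -5.30 to -2.42 and from -4.80 to -1.92. Leaving out each array gave -3.03 to -2.54 and -2.41 to -2.10 against IOSE80, and -3.06 to -2.56 and -2.48 to -2.17 against SKOV3.

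Between SKOV3 and IOSE80 the sign turned in some settings. Centring on the other named probes gave -0.36 for COX4I1 and -0.32 for MTX1, and no scaling gave -0.046 and -0.0042. With each array left out the range was -0.049 (without IOSE80 replicate 2) to 0.065 for COX4I1, with -0.0018 without SKOV3 replicate 1, and -0.0061 (without IOSE80 replicate 2) to 0.12 for MTX1. The within-array change of -0.041 turned to 0.040 after quantile normalization and to 0.038 with the authors' processed values. The cause was not tested.

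The counts of called probes moved with the filter on dim probes. With probes well above background on all 9 arrays, 3804 were called between SKOV3 and IOSE80 (9568 as reported). In the SKOV3-DDP comparisons, 12602 were called against IOSE80 (23454) and 12490 against SKOV3 (23144). These counts are out of 15226 probes, and those as reported are out of 28591. The shares called under the filters were not compared, and the cause of the lower counts was not tested. With no filter, more probes were tested, out of 60924 on the array. Then 52160 and 51783 were called in the SKOV3-DDP comparisons, against IOSE80 and SKOV3, and 10682 between SKOV3 and IOSE80. The cause of this unequal rise was not tested. With the replicate number as a block, COX4I1 was at -2.79 against IOSE80 (adjusted p = 1.21e-05 from limma) and MTX1 at -2.25 (adjusted p = 1.14e-05), and the block changed no call of either gene.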
